A study of Nothobranchius furzeri with 20 samples.

Results

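The 60 genes described here are those that came closest to being higher in the brain of every exercised 9-week turquoise killifish than in any other fish, out of 18153 genes whose mean over all libraries reached 1 CPM (counts per 1000000 counts of a library) and 26739 genes listed. They were chosen by a score on log2(CPM + 0.5). The score of a gene was the lowest of the 5 exercised 9-week fish minus the highest of 14 other fish, and the 60 genes with the highest scores are the members. The members are thus high in exercised 9-week fish by choice, and their levels there are a description with no test.

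The turquoise killifish (Nothobranchius furzeri) is an annual fish of seasonal ponds that matures, ages and dies within months, and it is used to study ageing of the vertebrate brain. Brain RNA was sequenced from male fish of strain MZM-04/10p: 5 fish of 9 weeks without perturbation, 5 of 9 weeks with swim-tunnel exercise and 10 of 27 weeks, all with swim-tunnel exercise. Unexercised fish of 27 weeks were not analysed here, and the labels give no length or strength of exercise, no batch and no pooling. Replicate numbers only name a library, and p-values measure the spread between these libraries.

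A swim tunnel makes a fish swim against a current, and in fish as in mammals such training is a load on muscle, heart and metabolism. In rodents, exercise is known to act on the brain through growth factors, new blood vessels and new neurons, and these responses are known to weaken with age. The data hold no gene names, since the files pair identifiers with none and 0 of the 26739 identifiers matched a RefSeq table of the species. No role can therefore be given to a member, the brain origin could not be checked against marker genes, and members are called by their rank in the score. In whole brain, fewer cells of a type and less RNA per cell cannot be told apart.

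Total counts ranged from 15048627 to 34843199 per library, with the lowest and the highest both among the exercised 9-week fish. One library differed from all others, that of 27-week replicate 8. Its median over all 18153 genes lay 0.46 below the mean of the 14 other fish on the log2 scale, and its TMM scaling factor (a correction for a few genes that take many counts) was 0.731, against 0.984 to 1.05 in the other 19 libraries. The choice of members left it out, and levels are given for the 9 other fish of 27 weeks with replicate 8 beside them. The edgeR and DESeq2 fits of 27-week fish include it unless stated otherwise, as do the means and SDs drawn in the plots by fish.

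Most members were raised by little, and about as many overlapped the other fish as did not. In 29 of the 60 members all 5 exercised fish lay above all 14 others, and in the other 31 at least 1 of the 14 lay above the lowest exercised fish. In 19 of these it was 1 fish, in 6 it was 2, in 5 it was 3 and in 1 member it was 4. The 29 were the full number among all genes scored, 0.16% of them, while 15 genes had all 5 exercised fish below all 14 others. With TMM scaling 21 members had all 5 exercised fish on top, again the full number, and 14 genes had them below all 14 others. The name given to the set, genes high only in exercised 9-week fish, therefore holds on CPM for 29 members and not for 31. With TMM scaling it holds for 21.

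The scores fell off quickly after the first ranks and left no step at the limit of 60. Only 3 members had a score above 0.1, and the median score was -0.00175. The members ranked 59 and 60, just inside the limit, scored -0.0267 and -0.0295, and the genes ranked 61 and 62, just outside, scored -0.0302 and -0.0312. The limit therefore parts genes that are alike in score.

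Taken by mean CPM, exercised fish were 1.04-fold to 2.05-fold above unexercised fish of the same age over the members, with a median of 1.12-fold. Against the 9 fish of 27 weeks the fold lay between 1.06 and 2.45, with a median of 1.16. In 39 members the fold over unexercised fish reached 1.1, in 2 it reached 1.5 and in 1 it reached 2. Over the 9 fish of 27 weeks these numbers were 54, 4 and 2. On the log2 scale the median difference from unexercised fish was 0.16 for members and 0.02 for all genes scored.

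Nfu_g_1_003916, rank 1, was the member with the widest gap. It stood at 12.9, 11.2, 13.0, 10.4 and 11.2 CPM in the 5 exercised 9-week fish and at 5.03, 5.06, 5.62, 6.48 and 6.52 CPM in the 5 unexercised fish. The 9 fish of 27 weeks lay between 5.09 and 7.79 CPM, with a median of 5.50, and replicate 8 was at 3.85 CPM. No fish of the other groups came near the exercised 9-week fish, and the unexercised 9-week and the 27-week groups lay on the same level. The means were 11.7 ± 1.15 CPM (SD, n = 5) in exercised, 5.74 ± 0.730 (n = 5) in unexercised and 5.74 ± 0.828 (n = 9) in 27-week fish, a fold of 2.05 over either.

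Nfu_g_1_003210, rank 2, differed in that its mean level was lower still at 27 weeks, with the lowest values in replicates 6 to 9. The exercised 9-week fish had 15.1, 11.05, 14.6, 13.9 and 19.3 CPM and the unexercised fish 6.24, 8.24, 7.16, 8.77 and 9.34 CPM. The 27-week fish ranged from 4.05 to 9.24 CPM with a median of 5.98, and replicate 8 had 3.47 CPM. By title range, replicates 1 to 5 had 9.24, 5.27, 7.42, 6.09 and 7.65 CPM. Replicates 6, 7, 9 and 10 had 4.36, 4.23, 4.05 and 5.98 CPM. The exercised fish were clear of the rest, while the 27-week fish reached from below the unexercised fish up into their range. Exercised fish were 1.86-fold above unexercised and 2.45-fold above 27-week fish by mean CPM.

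Nfu_g_1_010461, rank 4, showed a smaller gap, with little spread within either 9-week group. It measured 25.1, 24.1, 27.0, 26.8 and 25.4 CPM in exercised and 18.1, 19.4, 19.1, 18.1 and 19.1 CPM in unexercised 9-week fish. At 27 weeks it ranged from 15.4 to 22.8 CPM with a median of 20.3, and replicate 8 was at 15.4 CPM. All exercised 9-week fish lay above all others, and the 27-week fish spread to both sides of the unexercised fish.

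The member ranked 20, chosen for mention after its values were seen, had a graded pattern. Its level was 25.02, 21.4, 22.2, 24.8 and 21.9 CPM with exercise and 14.6, 13.0, 15.9, 18.3 and 21.2 CPM without, at 9 weeks. The 27-week fish ran from 9.76 to 17.8 CPM, with a median of 12.3. One unexercised fish, replicate 5, at 21.2 CPM, nearly reached the lowest exercised fish, at 21.4 CPM, while the group means differed 1.39-fold.

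**Figure D1:**
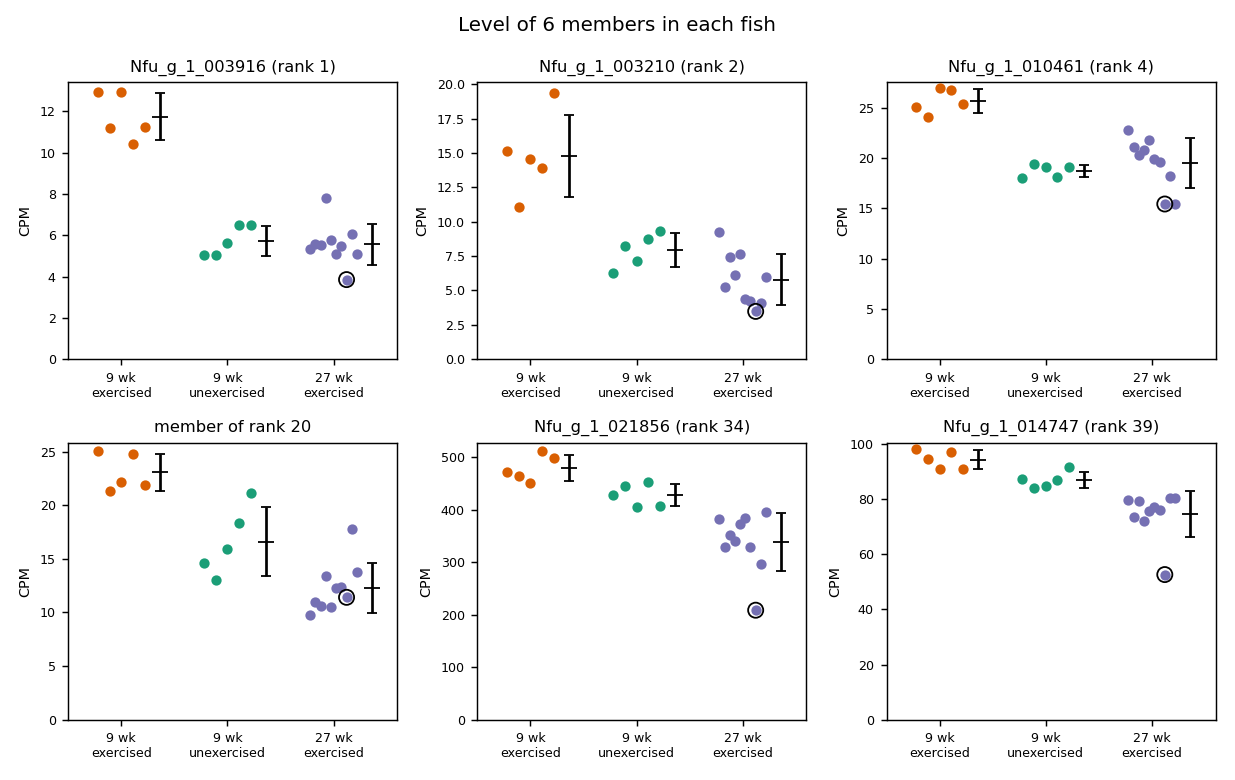
Level in CPM (vertical axes, from 0) of 6 members in each fish, by group. Points are fish, the black bar beside them is the mean with its SD over all fish of the group, and the ringed point is replicate 8 of the 27-week group. Rank 1 shows a wide gap between exercised 9-week fish and all others, while ranks 34 and 39 show small steps down from exercised to unexercised to 27-week fish.

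Taken as a set, the members put the 3 groups on 3 levels. The median deviation of the members from the mean of the 14 other fish was 0.200, 0.190, 0.209, 0.201 and 0.196 on the log2 scale in the 5 exercised fish. It was 0.078, 0.051, 0.044, 0.051 and 0.041 in the unexercised fish, and it ranged from -0.067 to 0.037 in the 9 fish of 27 weeks, with a median of -0.014. The exercised fish were nearly alike, which the score favours, since it takes the lowest of them. The unexercised fish lay above every 27-week fish, but narrowly, with 0.041 as their lowest and 0.037 as the highest at 27 weeks. Both groups were held under 1 ceiling by the rule, so this order is not wholly free of the choice. The same measure over all genes scored stayed between -0.039 and 0.035 in these 19 fish. With TMM scaling the median difference of the members between exercised and unexercised fish was 0.14 on the log2 scale, against 0.16 on CPM. The part of library scaling in these levels was not tested. Together the members held 0.563% ± 0.00576 of all counts (SD, n = 5) in exercised, 0.506% ± 0.00674 (n = 5) in unexercised and 0.482% ± 0.0102 (n = 9) in 27-week fish.

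**Figure D2:**
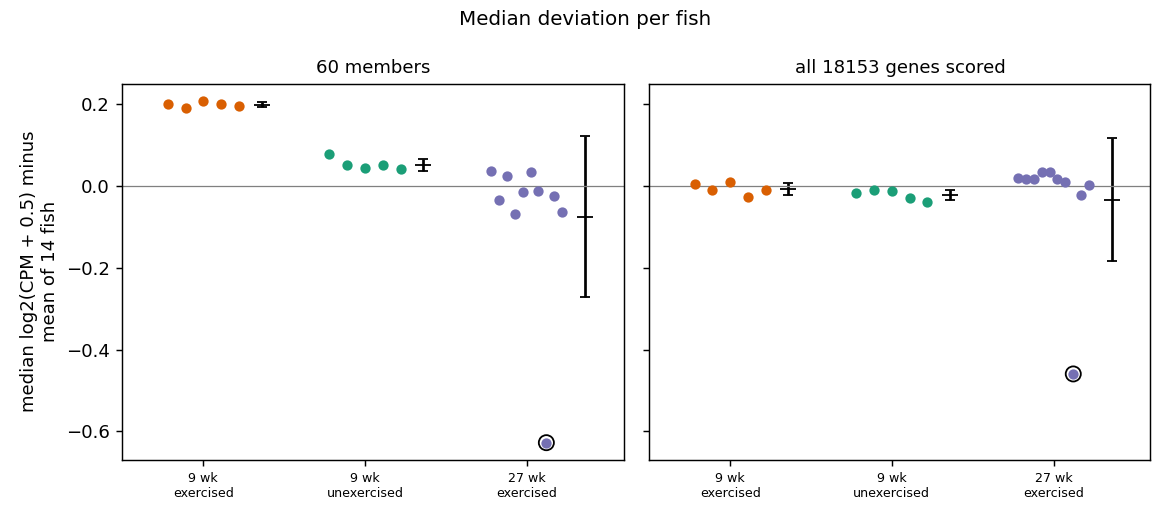
Median over genes of log2(CPM + 0.5) minus the mean of the 14 other fish (vertical axis) for each fish, for the 60 members (left) and all 18153 genes scored (right). Points are fish, black bars are the mean and SD over all fish of the group, and the ringed point is replicate 8 of the 27-week group, at -0.63 for members and -0.46 for all genes. The exercised fish stand at about 0.2 for the members and at about 0 for all genes, a height that the choice of members fixed.

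The score takes the lowest of the 5 exercised fish, so a single high fish could not bring a gene into the list. The counts that follow describe the choice, and nothing is read from them. The lowest exercised fish was replicate 1 in 10 members, replicate 2 in 14, replicate 3 in 12, replicate 4 in 11 and replicate 5 in 13. The highest was replicate 4 in 16 members, replicate 3 in 14, replicate 5 in 12, replicate 1 in 11 and replicate 2 in 7. Replicate 2 was least often the highest, and its 14 members as the lowest were close to the 13 of replicate 5. It had the most total counts, and whether this bore on its place was not tested.

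On the lower side the unexercised fish set the ceiling more often than their number. The highest of the 14 fish was an unexercised one in 33 members and a 27-week one in 27. Among 27-week fish it was replicate 1 in 9 members and replicate 3 in 8, and never replicate 2, 6 or 10. Replicate 4 was the lowest of the 14 in 19 members and replicate 10 in 13. By median deviation over the members, replicates 1, 3 and 6 were towards the top of the 27-week group, at 0.037, 0.024 and 0.034. Replicates 4 and 10 were towards the bottom, at -0.067 and -0.062.

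**Figure D3:**
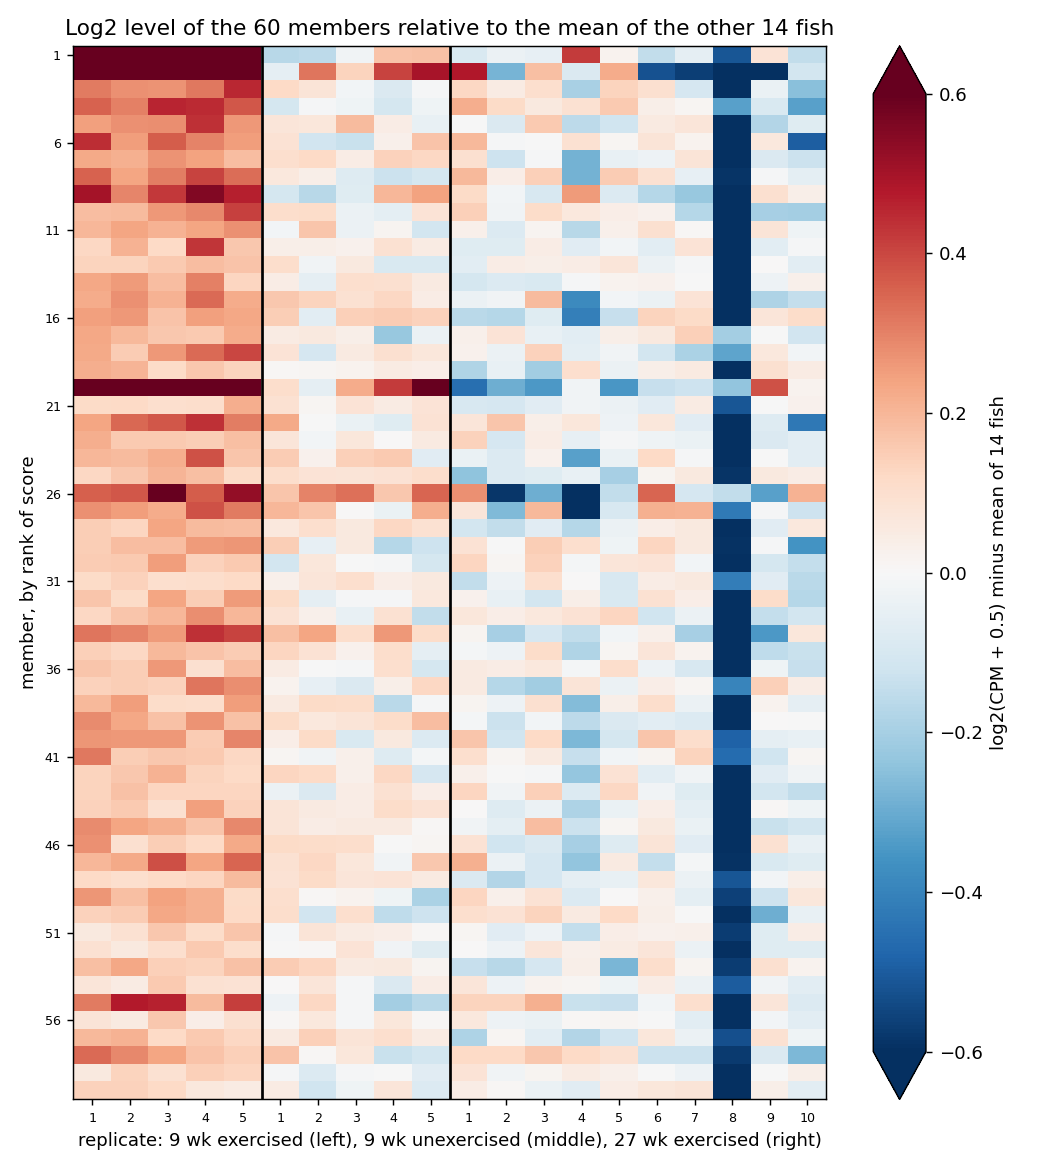
Log2(CPM + 0.5) of each member (rows, by rank) in each of the 20 fish (columns, by group and replicate), relative to the mean of the 14 other fish; the colour scale ends at -0.6 and 0.6. Ranks 1, 2 and 20 are at or beyond the upper end in all 5 exercised fish, most other rows are pale red there, and replicate 8 of the 27-week group is blue in every row.

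A reading in fish that the choice did not use comes from leaving out a fish and choosing 60 genes again by the same rule. The genes chosen without exercised replicate 1 had this fish above all 14 others in 40 of 60, against 5.24% of all genes scored. For replicate 2 it was 32 of 60 against 7.92%, and for replicate 3 it was 37 against 5.77%. Replicate 4 gave 34 against 8.08% and replicate 5 gave 36 against 6.61%. Each exercised fish lay on top in most genes that the other 4 picked. The left-out fish lay above the mean of the 14 fish in 52 to 58 of the 60 genes, against 45.1% to 52.3% of all genes. The choice held the 14 fish low in these genes, which makes such places easier to reach, so these counts are partly set by the choice.

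The height of the left-out fish was below that of the fish that did the choosing. Its median difference from the 14 fish was 0.15 to 0.18 on the log2 scale over the 5 choices, where the 4 choosing fish had 0.23 to 0.24. The level of the left-out fish is free of the choice, but that of the 14 fish it was set against is not, since they were chosen low in these genes. Genes chosen in this way also had less spread than genes at large, so the shares over all genes are not from genes of equal spread. The 5 exercised fish carry consecutive titles (JM117 to JM121), and whatever else they share cannot be told apart from exercise.

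**Figure D4:**
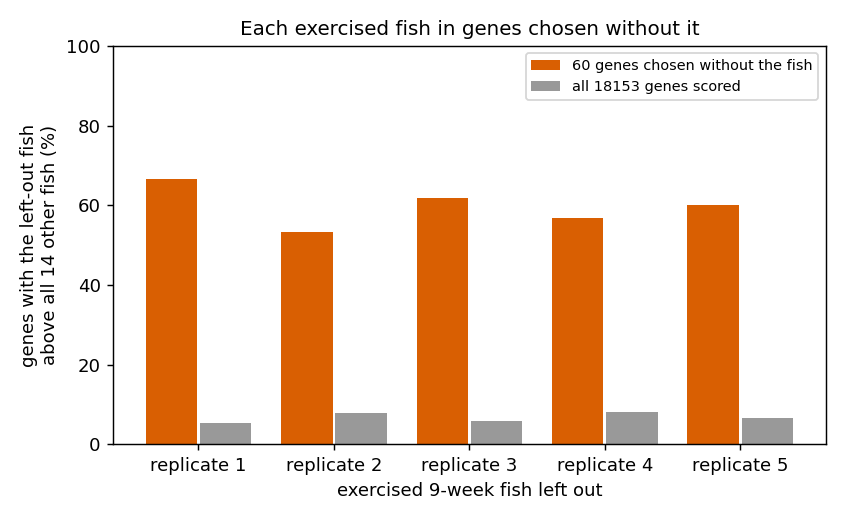
Share of genes (vertical axis, percent) in which the exercised 9-week fish named on the horizontal axis lay above all 14 other fish. Orange bars are the 60 genes chosen without that fish and grey bars all 18153 genes scored; the orange bars run from 53.3% to 66.7% and the grey ones from 5.24% to 8.08%.

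Leaving out a fish of the lower side gave a similar picture. The left-out unexercised fish lay below all 5 exercised fish in 40 to 54 of the 60 genes chosen without it, against 18.6% to 24.3% of all genes. A left-out 27-week fish did so in 40 to 59 of 60, against 16.6% to 28.4%. Here the exercised fish had been used for the choice, so their height was not free of it.

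Replicate 8 of the 27-week group, which took no part in the choice, was below all 5 exercised 9-week fish in all 60 members on CPM, against 66.7% of all genes. With TMM scaling, which moved its median over all genes from -0.46 to -0.01, it was below them in 59 members, against 36.5% of all genes. Its median deviation over the members was then -0.17. The exercised fish it was set against were high in these genes by choice, and left-out 27-week fish lay below all of them in 40 to 59 of 60 genes, so nothing is read from these counts.

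Exercised and unexercised 9-week fish, and exercised fish of 9 and 27 weeks, were compared by the choice itself, and nothing is read from the counts that follow. All 5 exercised fish lay above all 5 unexercised fish in 41 members (2.08% of all genes), and above all 9 fish of 27 weeks also in 41 (0.981%). By edgeR's quasi-likelihood test with Benjamini-Hochberg adjustment over all genes, 3 members, those ranked 1, 4 and 8, passed an adjusted p of 0.05 as higher with exercise at 9 weeks, where 0.0209% of all genes did. DESeq2 called 13 members, with a background of 0.766%. In the comparison of ages among exercised fish, edgeR called 29 members lower at 27 weeks (0.998% of genes), 45 without replicate 8 (2.13%), and DESeq2 called 55 (3.57%). Both comparisons share the exercised 9-week fish.

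The rule did not set 27-week fish against unexercised 9-week fish, a comparison in which age and exercise both differ. Most members were lower in the 27-week fish, by little, and few passed the test. As the rule bears on this contrast too, its counts are a description. By mean log2(CPM + 0.5), 47 of 60 members were lower in the 9 fish of 27 weeks than in unexercised fish, against 44.5% of all genes. The median difference was -0.05 for members and 0.03 for all genes. With TMM scaling 54 members were lower, against 53.7% of all genes, with medians of -0.10 and -0.02. The rule held both groups under 1 ceiling, with 9 of its 14 fish from the 27-week group, so this direction is not wholly free of the choice.

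In edgeR's quasi-likelihood test 2 members passed as lower at 27 weeks and 0 as higher, where 1.79% of all genes were called lower. A count of 2 in 60 is near that background. Without replicate 8 it was 6, with a background of 3.3%, and DESeq2 called 9, with 4.64%. Before adjustment 27 members had p below 0.05 in the edgeR test, all lower, against 10.6% of all genes that were lower at that p. This contrast is not free of the choice, since the rule held both groups under a common ceiling. Members also had less spread than all genes, with a median SD on the log2 scale of 0.076 against 0.142 in unexercised fish. In the 9 fish of 27 weeks it was 0.105 against 0.189. Less spread gives a smaller p for the same difference, so nothing is read from this contrast. In 4 members all 9 fish of 27 weeks lay below all 5 unexercised fish (0.898% of all genes), and in 0 they lay above (3.51%).

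The 2 members that passed were Nfu_g_1_021856 and Nfu_g_1_014747, ranked 34 and 39 and named after their values were seen. Nfu_g_1_021856 stood at 428, 445, 406, 452 and 407 CPM in unexercised fish and between 297 and 396 CPM, with a median of 352, in the 9 fish of 27 weeks. Replicate 8 was at 209 CPM, and exercised 9-week fish had 472, 464, 451, 512 and 499.6 CPM. The 27-week fish were below all 9-week fish, and the lowest exercised fish dipped just under the highest unexercised one. The log2 fold change from unexercised 9-week to 27-week fish was -0.33 (SE 0.07, adjusted p = 0.0240 by edgeR, with 10 of 10 fish under all unexercised fish).

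Nfu_g_1_014747 had 87.1, 83.9, 84.8, 86.9 and 91.4 CPM in unexercised fish and 72.0 to 80.4 CPM, with a median of 77.0, in the 9 fish of 27 weeks. Exercised 9-week fish had 97.9, 94.4, 91.0, 97.0 and 90.8 CPM, so 2 of them were under the highest unexercised fish. Its log2 fold change from unexercised 9-week to 27-week fish was -0.21 (SE 0.04, adjusted p = 0.0195 by edgeR, with 10 of 10 fish under all unexercised fish). Neither call held without unexercised replicate 1, 4 or 5, with edgeR adjusted p from 0.0511 to 0.0753, and that for Nfu_g_1_021856 was also lost without replicate 2 (0.0593).

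The members of widest gap did not pass in this comparison. Nfu_g_1_003916 had a log2 fold change of -0.05 (SE 0.11, edgeR adjusted p = 0.818) from unexercised 9-week to 27-week fish. Nfu_g_1_003210, with the largest fall among members in this fit, had -0.47 (SE 0.19, edgeR adjusted p = 0.140). By mean log2(CPM + 0.5) of the 9 fish without replicate 8 its difference was -0.40, beside -0.41 for the members ranked 20 and 26. Nfu_g_1_010461, with the largest rise in the fit, had 0.07 (SE 0.07, edgeR adjusted p = 0.580). A p above the threshold does not show that levels were equal.

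The 27-week titles fall into JM132 to JM136 (replicates 1 to 5) and JM139 to JM144 (replicates 6 to 10). Set against each other, these fish differed little in the median over the members, in which differences of opposite direction cancel. In 31 of 60 members the first 5 fish had the higher mean, against 53.9% of all genes, and the median difference was 0.02 for members and 0.02 for all genes. Set against unexercised fish they were less alike. The mean of the first 5 lay below the unexercised mean in 36 members, against 44.7% of all genes. For replicates 6, 7, 9 and 10 it did so in 49 members, against 44.1%. The 2 sets of fish bore unequally on the choice. With the first 5 alone beside the unexercised fish, 38 genes had all exercised fish on top, and with replicates 6, 7, 9 and 10 alone 151 genes did. Only 16 of the 60 members were among the 60 highest scores in the latter case, and 44 in the former. The labels give no meaning to these titles.

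Many members were long genes. Gene length was taken from the deposited values, which imply it for all 18153 genes scored. The median was 5727 bp for members and 2765 bp for all genes, and the range of members went from 213 to 13576 bp. When all genes were split by length into 4 classes of equal size, 34 members fell in the longest class, 7 and 13 in the middle classes (longer first) and 6 in the shortest. Most deposited RPKM had the total of another library as divisor, and lengths read as if each had its own gave medians of 2889 bp for members and 1740.3 bp for all genes, with 28 members in the longest class. Length varied among the first ranks: Nfu_g_1_003916 measured 1566 bp, Nfu_g_1_003210 2558 bp and Nfu_g_1_010461 2163 bp, while the member ranked 3 measured 4877 bp and that ranked 7 measured 11725 bp. The 29 members without overlap had a median of 4360 bp and the other 31 one of 5977 bp.

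Length also went with level across libraries, by little. The slope of log2 level on length, relative to the 14 other fish, was 0.0150 ± 0.0123 per doubling (SD, n = 5) in exercised, 0.00612 ± 0.0104 (n = 5) in unexercised and -0.00340 ± 0.00922 (n = 9) in 27-week fish. With this trend removed from each library, 45 of the 60 members were chosen again. All exercised fish then lay above all 14 others in 24 members, the full number among all 18153 genes scored. Of these, 21 were among the 29 without overlap before. In 15 genes the exercised fish then lay below all 14 others. The median length of the 60 genes then chosen was 3116 bp, nearer to that of all genes, so the lengths of the chosen genes depended on whether the trend was removed. The median difference of the members between exercised and unexercised fish was 0.17 on the log2 scale with the trend removed and 0.16 without. Members also had a higher level, with a median of 51.3 for mean CPM over the 20 libraries, against 20.5 for all genes scored. The parts of length and level in the choice were not told apart and were not tested further.

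**Figure D5:**
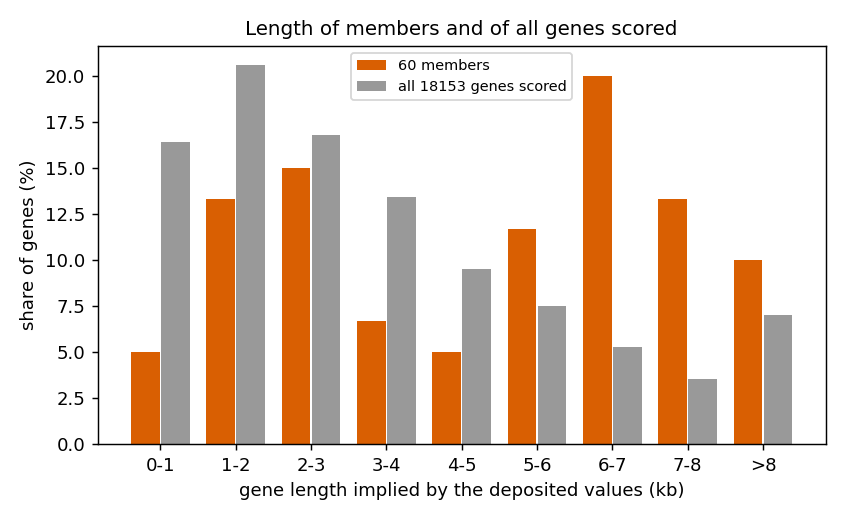
Share of genes (vertical axis, percent) by gene length in classes of 1 kb (horizontal axis), for the 60 members (orange) and all 18153 genes scored (grey). Members peak between 6 and 7 kb with 20.0% of them, where 5.26% of all genes lie.

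Members were also well counted and even among fish. The counts behind a member ran from 29 to 19911 per library, with a median of 825.5 for a member's lowest count, and how far counting error made up the spread between fish was not tested. The lowest counts were those of the member ranked 26, with 29 to 111 counts per library and a length of 213 bp. Per length, with each library's own total, the median member had 12.1 RPKM (CPM per 1000 bp of gene) in exercised fish, against 8.25 for all genes. Within exercised fish the median SD of log2(CPM + 0.5) was 0.055 for members and 0.147 for all genes, and within unexercised fish it was 0.076 and 0.142. The score rewards a small spread, so these SDs belong to the choice as well.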

How the data were processed

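Raw counts and RPKM values of each gene were deposited by the authors for 20 libraries, with columns matched by title. Named in the submitters' processing notes, without a role, are STAR 2.4.1d, featureCounts 1.4.6-p4 and bcl2fastq 1.8.4. The build, annotation and strand setting are not given in the sources used, so reads of near-identical, overlapping or antisense genes cannot be told apart. As tested on the files, the deposited RPKM had as divisors the library totals in rotation from row to row (log2 SD of implied length 5.64e-05, against 0.420 with own totals, over 10327 genes), so only gene lengths were taken from them.

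CPM used raw library totals. For each comparison only its own groups were fitted, with R 4.3.3 and edgeR 4.0.16 (filterByExpr, TMM, glmQLFit, glmQLFTest, two-sided) and Benjamini-Hochberg adjustment over all genes, and DESeq2 1.42.0 as an alternative. On simulated data the edgeR fits recovered fewer small than large changes, and at the smallest size tried they missed most of them in both comparisons with 27-week fish, so a low count of calls there does not show that levels were equal. Log2 fold changes carry standard errors. Figures used Python 3.11.15 and matplotlib 3.10.9.

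The members, designs and alternatives were chosen with earlier results of these data known. Named genes are the 2 of highest score and the members of largest rise and largest fall from unexercised 9-week to 27-week fish in the edgeR fit, which gives 3 genes, since Nfu_g_1_003210 is named under both parts; 2 more were named after their values were seen. Marker lists were not analysed, since no identifier matched a name. Replicate numbers follow accession order and pair no fish.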

Additional observations from a re-analysis of the deposited data

Results flagged for a closer look

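In 21 groups of values (the members' median level, their share of counts and 5 named genes, in 3 groups of fish), the gap of the highest or lowest fish to its neighbour was set against the range of its group, where chance gives about 1 flag in 20. All 4 flags fell on 27-week replicate 8, and the measures are related. It had a median log2(CPM + 0.5) of 4.94 over the members, a share of 0.308% of its counts in the members, 209 CPM for Nfu_g_1_021856 and 52.6 CPM for Nfu_g_1_014747, each the lowest of its group. Most genes were lower in this library on CPM: the median over all genes was -0.46 against the 14 other fish, and 58.9% of genes lay below all 14.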

How the results depend on the processing

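Choosing the members under other settings kept 60 of 60 with a pseudocount of 0.1 or 1 and with replicate 8 of the 27-week group put back, 59 with a minimum of 5 CPM, 46 with TMM scaling, 45 with the length trend removed and 29 with no minimum of mean CPM. With 27-week titles JM139 to JM144 alone 16 were kept. Leaving out 1 fish kept 38 to 60, the lowest without exercised replicate 2. The length and title alternatives were chosen after seeing the data.

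Members passing in the exercise comparison numbered 3 with edgeR, 13 with DESeq2 and 1 with all 20 libraries in the fit. Without 1 replicate it was 0 to 3 (0 without exercised replicate 3, 1 without unexercised replicate 2 or 4). The share of all genes called, in either direction, was 0.0994% with edgeR, 1.75% with DESeq2 and 0.00507% with all 20 libraries. It was 0% without exercised replicate 3 and 0.0208% and 0.052% without unexercised replicates 2 and 4. Between ages among exercised fish, 29 members passed with edgeR, 55 with DESeq2 and 53 with all 20 libraries. Leaving out 1 replicate gave 2 to 45 members. The count was 8, 6, 10, 2 and 9 when exercised 9-week replicates 1 to 5 were left out in turn. Dropping 27-week replicate 2, 5 or 8 gave 16, 19 and 45 members. Of all genes, 2.16% were called with edgeR, 8.19% with DESeq2 and 6.12% with all 20 libraries. This share was 0.518%, 0.225%, 0.696%, 0.0356% and 0.859% when exercised 9-week replicates 1 to 5 were left out. Dropping 27-week replicate 2, 5 or 8 gave shares of 0.963%, 0.994% and 4.71%. From unexercised 9-week to 27-week fish, 2 members passed with edgeR, 9 with DESeq2 and 9 with all 20 libraries. Leaving out 1 replicate gave 0 to 7 members. Dropping unexercised replicate 1, 2, 4 or 5 gave 0, 1, 0 and 0, with 0.746%, 1.26%, 0.888% and 0.898% of all genes. Dropping 27-week replicate 6, 8 or 9 gave 4, 6 and 7, with 5.87%, 7.93% and 4.03%. The share was 4.35% with edgeR, 11.4% with DESeq2 and 9.1% with all 20 libraries. In these fits the share of all genes rose or fell with the count of members, except when 27-week replicate 9 was dropped. In the fits listed here, all called members were higher with exercise and lower at 27 weeks. The rule set this direction in both comparisons with exercised 9-week fish, so nothing is read from it. The cause of the changes in these counts was not tested. Other scaling factors and no filter on low counts kept each count within 1.5 times. No paired analysis was possible because replicate numbers here follow accession order alone. The members' median length moved from 5727 to 2889 bp with each library's own total. Both readings take the largest RPKM of a gene and differ in the divisor. Own totals gave lengths 0.619 times as long at the median over all genes. They are not the divisors that the deposited values bear out (log2 SD of implied length 0.420, against 5.64e-05 with totals in rotation).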
